A study of Mus musculus with 6 samples.

Results

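The *Shh* limb enhancer domain and the surroundings of *Hand2* were described from the deposited ATAC-seq peaks of mouse distal forelimb buds. Peaks of the first region had their midpoint on chromosome 5 between 28400000 and 29450000 (mm10), from *Shh* to beyond *Lmbr1*, and peaks of the second region lay within 250 kb of the *Hand2* start at position 57320983 of chromosome 8. Both regions were set by position alone, and they held 45 of the 61954 peaks of the table, 11 in the *Shh* to *Lmbr1* domain and 34 around *Hand2*. ATAC-seq reports open chromatin as the density of sequencing adapters inserted by the Tn5 transposase. Distal forelimb buds were taken at E11.5 from a mixed C57Bl/6 x 129 background, with 2 libraries of wild-type (WT) embryos and 2 libraries of Hox13-/- embryos, and 50000 cells from the pooled left and right buds of 1 embryo went into each of them. Hox13-/- embryos carry the Str null allele of *Hoxa13* and the lacZ null allele of *Hoxd13*, which remove both factors from the whole embryo rather than from the limb alone. Nothing states that the embryos came from separate litters, so p-values rest on the spread between these libraries alone. A further 2 libraries of proximal forelimb buds, with a genotype label of Control RosaHoxa11/Hoxa11, were not analysed here. The comparison asked how loss of HOX13 relates to accessibility at each peak. All values below are rLog, a log2 scale on which the authors divided the reads of each peak by a library size factor and shrank them towards the mean of the peak. Differences are Hox13-/- minus WT, with the standard error (SE) of limma. In limma the spread is pooled over all peaks. The SE, interval and p of a peak therefore hardly follow the spread of its own replicates. The values hold no read numbers, and the depth of each peak is therefore unknown.

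*Shh* encodes the signal that the zone of polarizing activity at the posterior limb margin sends out, and it sets the number and identity of digits. Its limb expression depends on a distant enhancer, the ZRS, which lies in an intron of *Lmbr1* and carries binding sites for HOX and ETS proteins. *Hand2* encodes a basic helix-loop-helix factor of the posterior limb mesenchyme that acts on the ZRS and on *Shh*, and 5′ HOX proteins act on the same enhancer.

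The sequences that the results turn on are given first, all from the plus strand of mm10. RefSeq annotates 4 HOX sites in the ZRS, of which sites 1 and 3 are recorded as bound by HOXD13 among other HOXD proteins and sites 2 and 4 as bound by HOXD9 and HOXD11. Capitals mark each TTTA or TAAA, the core of a HOX site on either strand.
HOX site 1, chr5:29315291-29315314: caaaagcgacaTAAAccaggacaa
HOX site 2, chr5:29315265-29315289: acaaggtcactTTTAtgtaagtttg
HOX site 3, chr5:29315241-29315267: agtcatctggtcaTAAAatacagtaca
HOX site 4, chr5:29315093-29315116: ttccaacaaTTTAtggatcatcag

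The ZRS held 2 peaks, and the central 300 bases of each are shown because they separate these sites. Capitals mark the annotated factor sites that lie whole within the bases shown. These are HOX sites 3, 2 and 1 and ETS site 1 in the shorter peak, and ETV4 site B in the longer peak.
Shorter ZRS peak, chr5:29315228-29315527: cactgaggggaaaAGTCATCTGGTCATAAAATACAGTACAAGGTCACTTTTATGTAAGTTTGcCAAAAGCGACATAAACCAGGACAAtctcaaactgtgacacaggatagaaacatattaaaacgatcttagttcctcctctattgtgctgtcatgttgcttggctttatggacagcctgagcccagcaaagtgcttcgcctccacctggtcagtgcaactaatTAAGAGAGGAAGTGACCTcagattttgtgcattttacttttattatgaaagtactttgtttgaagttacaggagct
Longer ZRS peak, chr5:29314714-29315013: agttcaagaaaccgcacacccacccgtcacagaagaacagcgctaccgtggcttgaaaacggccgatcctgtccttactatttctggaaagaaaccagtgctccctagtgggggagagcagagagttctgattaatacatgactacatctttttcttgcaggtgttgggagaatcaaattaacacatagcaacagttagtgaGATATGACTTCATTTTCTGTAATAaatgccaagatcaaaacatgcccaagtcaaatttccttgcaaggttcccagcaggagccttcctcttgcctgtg

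The remaining sequences are those of the peak in the *Shh* intron, of the higher *Hand2* peak that had the smallest p, and of the 250 bases before the *Hand2* start from the RefSeq promoter table, which held 2 of the 3 genes *Shh*, *Lmbr1* and *Hand2*, without *Shh*. Capitals mark matches, on either strand, to CNNATAAA (a HOX13 motif), CATCTG (an E-box of the kind HAND2 binds) and GGAAGT (an ETS motif), where N is any base.
*Shh* intron peak, chr5:28460637-28460891: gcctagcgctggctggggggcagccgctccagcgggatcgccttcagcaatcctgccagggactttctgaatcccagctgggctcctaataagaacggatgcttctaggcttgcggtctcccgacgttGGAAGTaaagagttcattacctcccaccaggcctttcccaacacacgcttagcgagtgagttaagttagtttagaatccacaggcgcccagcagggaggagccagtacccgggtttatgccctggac
*Hand2* 115.3 kb peak, centre, chr8:57436108-57436407: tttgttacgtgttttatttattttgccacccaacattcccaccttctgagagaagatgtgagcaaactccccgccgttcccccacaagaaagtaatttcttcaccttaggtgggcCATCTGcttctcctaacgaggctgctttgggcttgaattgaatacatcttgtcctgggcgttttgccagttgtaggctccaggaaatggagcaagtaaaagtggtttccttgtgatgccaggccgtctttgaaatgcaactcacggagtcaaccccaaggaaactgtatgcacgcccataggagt
Before the *Hand2* start, chr8:57320733-57320982: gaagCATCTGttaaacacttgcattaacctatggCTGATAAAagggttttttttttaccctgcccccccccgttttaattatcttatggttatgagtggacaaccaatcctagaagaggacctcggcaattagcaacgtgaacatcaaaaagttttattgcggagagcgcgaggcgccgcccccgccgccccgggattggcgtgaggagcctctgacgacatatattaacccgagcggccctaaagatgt

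Of the 11 peaks of the *Shh* to *Lmbr1* domain, the limma test (adjusted p under 0.05) called 1 lower in Hox13-/- and 2 higher, and 8 did not pass. Around *Hand2*, 5 of 34 peaks were lower, 6 were higher and 23 did not pass. Over all 61954 peaks the same rule called 8.31% lower and 11.4% higher, 19.7% in either direction. The median difference was 0.03 in the *Shh* to *Lmbr1* domain and 0.01 around *Hand2*, beside -0.01 over all peaks. No peak of either region passed with a difference beyond 2-fold, which 0.224% of all peaks did in the lower direction, 0.313% in the higher and 0.537% in either, and in limma an unadjusted p under 0.05 was reached by 8 of the 45 peaks with a lower value and by 10 with a higher value (14.9% and 16.9% of all peaks). Both Hox13-/- libraries were below both WT libraries at 15 of the 45 peaks and above both at 13, while over all peaks these shares were 29.6% and 29.7%. The counts moved when a library was left out, as did those of all peaks, from 5146 lower and 7040 higher to between 2865 and 3552 lower and between 4650 and 5008 higher. The lower count of the *Shh* to *Lmbr1* domain was 0 without any 1 of the 4 libraries, and its higher count was 1 without Hox13-/- replicate 2. Around *Hand2*, 3 peaks were lower without WT replicate 1 or without Hox13-/- replicate 1, and 2 and 3 were higher without these libraries, respectively. Without WT replicate 2 or without Hox13-/- replicate 1, 1 peak around *Hand2* was beyond 2-fold. In bulk tissue, fewer cells with an open site and less accessibility per cell cannot be told apart.

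**Figure D1:**
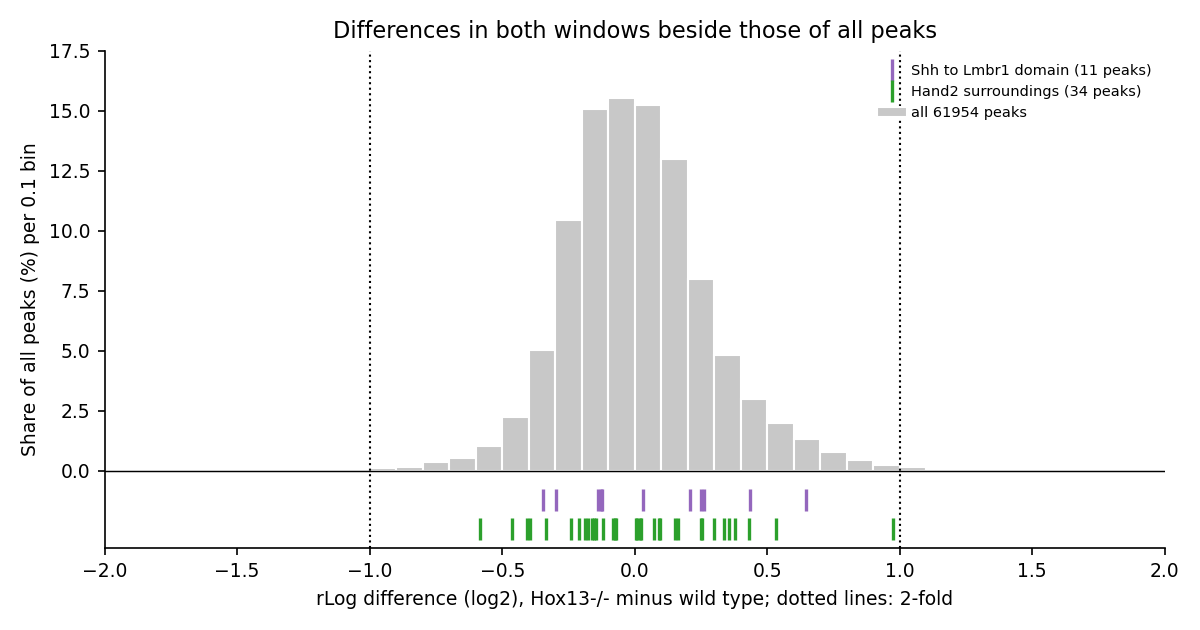
Grey bars give the share of all 61954 peaks (%) in bins of 0.1 of the rLog difference, Hox13-/- minus WT, and the ticks below give the single differences of the 11 peaks of the *Shh* to *Lmbr1* domain and of the 34 peaks around *Hand2*. All ticks lie within the dotted lines at 2-fold.

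The peak with the smallest p in the *Shh* to *Lmbr1* domain lay inside *Shh* itself. It spanned 255 bp of a *Shh* intron, 6.5 kb from the *Shh* start, where the antisense transcript 9530036O11Rik is also annotated. Its rLog was 3.93 and 3.81 in the WT libraries and 4.53 and 4.50 in the Hox13-/- libraries. Both mutant libraries stood above both WT libraries, and the peak had been called only in the 2 Hox13-/- libraries. The difference was 0.65 (SE 0.13, limma adjusted p = 1.45e-05), and 2.46% of all peaks had a larger one. Accessibility thus rose at this intronic site, and with each library left out in turn the difference ranged from 0.59 to 0.70 and stayed past the threshold. The printed sequence holds a GGAAGT match at bases 129 to 134. RefSeq places a floor plate and brain enhancer of *Shh* (SFPE2/SBE1) 524 bp away, without overlap. No peak was found within 1 kb of the *Shh* start. The only peak beyond the end of *Shh* (chr5:28451368-28451453) read 3.20 and 3.39 in WT and 3.07 and 3.26 in Hox13-/-, values that overlapped between genotypes.

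The ZRS is annotated as a region of 1366 bp between 2 exons of *Lmbr1*, at chr5:29314497-29315862, and its longer peak lay 847.6 kb from the *Shh* start. The shorter ZRS peak (chr5:29315222-29315532, 311 bp) read 4.37 and 4.21 in WT and 4.71 and 4.75 in Hox13-/-. Both mutant libraries were again above both WT libraries, and the difference of 0.43 (SE 0.13) passed the test (limma adjusted p = 0.00764). This peak contains the annotated HOX sites 1, 2 and 3 and ETS site 1, and it shares bases with the fragment recorded as bound by HAND2 (chr5:29315142-29315328). The call was lost without WT replicate 2 (difference 0.36, adjusted p = 0.132) and without Hox13-/- replicate 2 (0.41, adjusted p = 0.0665). The longer ZRS peak (chr5:29314611-29315116, 506 bp), with HOX site 4, ETS site 3 and ETV4 site B, read 5.05 and 5.46 in WT and 5.21 and 5.79 in Hox13-/-. The genotypes overlapped there, and in both of them replicate 2 was the higher library. Its difference of 0.25 (SE 0.13, limma adjusted p = 0.171) did not pass, and the 95% interval from -0.01 to 0.50 included the difference of the shorter peak. That interval uses the pooled spread and is too narrow for this peak, whose replicates had standard deviations of 0.29 in WT and 0.41 in Hox13-/-. Leaving out a library moved the difference from -0.04 without Hox13-/- replicate 2 to 0.54 without Hox13-/- replicate 1, both outside the interval. Without WT replicate 2 it was 0.45. Per kilobase of peak, WT levels were 6.03 and 6.44 (log2) at the longer peak and 6.06 and 5.90 at the shorter one. ETS site 2 fell in neither peak, in the 105 bases between them. A small peak just outside the annotated region (chr5:29313989-29314132) read 3.02 and 3.20 in WT and 3.30 and 3.34 in Hox13-/-, a difference of 0.21 (adjusted p = 0.197). With each library left out it ranged from 0.12 to 0.30, and it was 0.11 under the GC correction described below.

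**Figure D2:**
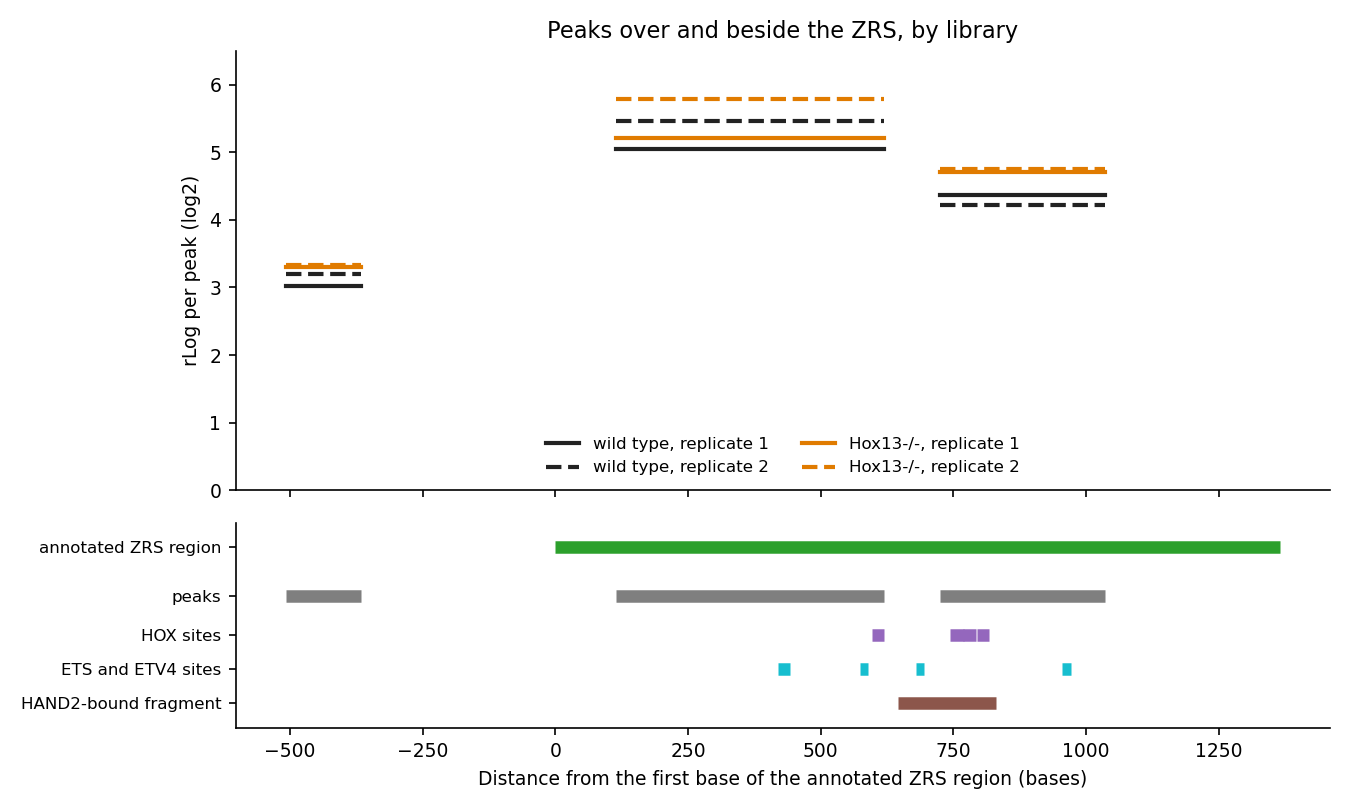
Each horizontal line in the upper panel is the rLog of 1 library over 1 peak, drawn over the span of the peak in bases from the first base of the annotated ZRS region, and the lower panel gives the annotated region, the peaks and the annotated factor sites. At the shorter peak the Hox13-/- lines (4.71 and 4.75) lie above the WT lines (4.37 and 4.21), and at the longer peak they interleave.

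None of the ZRS peaks had been called by the authors in a WT library. The shorter peak was called in both Hox13-/- libraries, and the longer one only in Hox13-/- replicate 2, even though the longer peak had a WT rLog above that of the shorter one. RefSeq annotates 11 enhancer regions of *Shh* in this domain, and only the ZRS had a peak over it. The other 10, recorded as active in the nervous system, lung and gut, oral epithelium, pharynx and the respiratory and digestive tubes, lay between 524 and 108934 bp from the nearest peak. The 728.736 kb between the *Shh* start and the *Rnf32* start held 2 peak midpoints, 1 of them at the *Rnf32* start. The other, 368.7 kb from *Shh*, read 4.16 and 4.24 in WT and 4.32 and 4.61 in Hox13-/- (difference 0.26, adjusted p = 0.144). The whole domain of 1050 kb held 11 peaks, and 28.4% of 2337 autosomal windows of that width held as many or fewer (median 25).

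At the starts of *Lmbr1*, *Rnf32* and *Nom1*, 1 peak each was called in all 4 libraries. *Lmbr1*, the host gene of the ZRS, encodes a membrane protein, and its start peak (chr5:29378083-29378678) read 6.75 and 6.78 in WT and 6.76 and 6.83 in Hox13-/-. The genotypes overlapped, and the difference of 0.03 had a 95% interval from -0.22 to 0.28 (adjusted p = 0.887). Its sign turned under median centring and without Hox13-/- replicate 2, with values within 0.01 of 0. *Rnf32* encodes a RING finger protein, and the peak at its start (chr5:29195501-29195916) read 6.19 and 6.24 in WT and 5.89 and 5.85 in Hox13-/-. This was the lower call of the domain (difference -0.35, SE 0.13, adjusted p = 0.0407), and it was lost without any 1 of the 4 libraries, with differences from -0.37 to -0.32 and adjusted p from 0.0947 to 0.174. The GC correction of each library, which removes a smooth trend of signal on the GC content of the peaks, also ended this call (-0.25, adjusted p = 0.184). The neighbouring *Rnf32* peak (chr5:29196000-29196343) read 5.53 and 5.25 in WT and 5.25 in both Hox13-/- libraries. A weak peak at another annotated *Rnf32* start (chr5:29197915-29198013) read 2.81 and 2.79 in WT and 2.66 and 2.70 in Hox13-/- (difference -0.12, adjusted p = 0.446). *Nom1* encodes a nucleolar protein, and its start peak (chr5:29434535-29434897) read 6.15 and 6.14 in WT and 5.80 and 5.90 in Hox13-/-. Both mutant libraries were lower, but the difference of -0.30 did not pass (adjusted p = 0.0856). All 5 intronic peaks of the domain, the ZRS peaks among them, had differences above 0 (0.21 to 0.65), and 2 of them passed. Among all intronic peaks, 15.9% were higher and 8.2% were lower, whereas of peaks within 1 kb of any start 2.07% were higher and 8.37% lower.

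**Figure D3:**
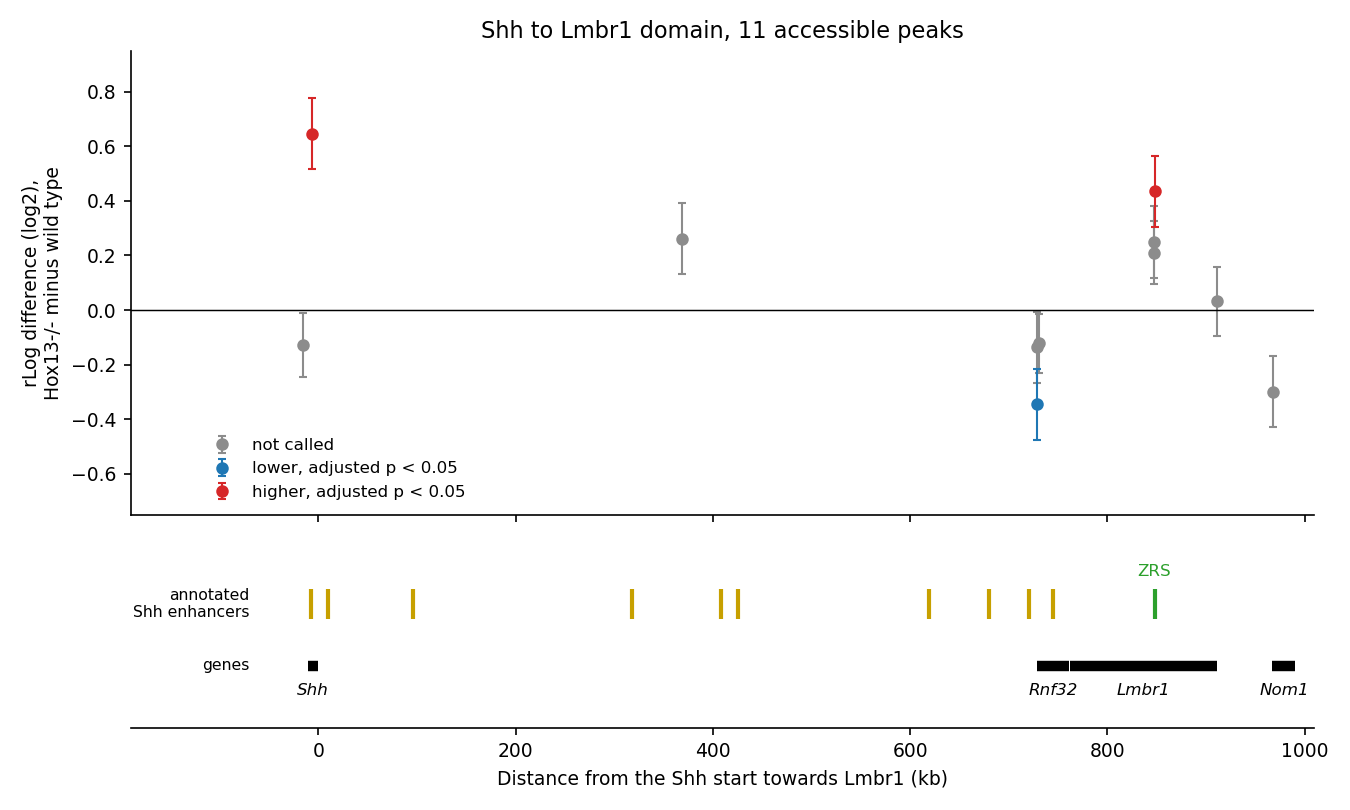
Points give the rLog difference, Hox13-/- minus WT, of the 11 peaks of the *Shh* to *Lmbr1* domain with the SE as bars, by distance (kb) from the *Shh* start towards *Lmbr1*, above the RefSeq enhancer regions of *Shh* (ticks) and the genes. The *Shh* intron peak (0.65) and the shorter ZRS peak (0.43) are the higher calls, and most annotated enhancers have no peak.

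*Hand2* showed no called difference at its own start. The start peak (chr8:57320815-57321105) reaches from the promoter into *Hand2* and also lies in *Hand2os1*, a long non-coding RNA gene on the opposite strand that runs across the *Hand2* start. It was called in all 4 libraries and read 5.61 and 5.53 in WT and 5.68 and 5.78 in Hox13-/-. The mutant libraries were slightly above the WT libraries, and the difference of 0.16 had a 95% interval from -0.09 to 0.42 (adjusted p = 0.393). A smaller peak in front of it (chr8:57319955-57320053) read 3.44 and 3.66 in WT and 3.43 and 3.32 in Hox13-/- (difference -0.17, adjusted p = 0.317). With each library left out, the difference of this smaller peak ranged from -0.28 to -0.06. With both start peaks counted, the 34 peaks around *Hand2* exceeded the median of 11 peaks per 500 kb window, and 4.9% of 4916 autosomal windows held as many or more.

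Accessibility was lower at 2 sites downstream of *Hand2*. The peak 13 kb downstream (chr8:57333420-57334453, 1034 bp) overlaps the VISTA element mm1283, which RefSeq records as a branchial arch enhancer, and lies in the long non-coding RNA genes Gm34030 and 5033428I22Rik. It read 7.19 in both WT libraries and 6.85 and 6.71 in Hox13-/-. It was called in all 4 libraries, and the genotypes did not overlap. The difference was -0.41 (SE 0.13, adjusted p = 0.011), and without Hox13-/- replicate 2 it was -0.34 (adjusted p = 0.158). The peak 20.0 kb downstream (chr8:57340830-57341148) read 5.61 and 5.65 in WT and 5.11 and 5.23 in Hox13-/-. Here too both mutant libraries were lower, with a difference of -0.46 (SE 0.13, adjusted p = 0.00406) that became -0.40 without Hox13-/- replicate 1 (adjusted p = 0.0793). The nearest peak on its far side, 1310 bases on (chr8:57342459-57342755), changed in the opposite direction, from 4.21 and 4.40 in WT to 4.72 and 4.60 in Hox13-/-. Its difference of 0.36 (SE 0.13, adjusted p = 0.0363) lost its call without WT replicate 1 (0.26, adjusted p = 0.318), Hox13-/- replicate 1 (0.29, adjusted p = 0.223) or Hox13-/- replicate 2 (0.42, adjusted p = 0.0654), and also under median centring (0.32), quantile (0.33) and cyclic loess (0.32) normalization and under the GC correction (0.30). Both peaks lie in or at a start of the long non-coding RNA gene 5033428I22Rik.

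Weak peaks upstream were among the lower ones. Both described here had been called as peaks in a single WT library, replicate 2 at 5.2 kb and replicate 1 at 209.5 kb. They entered the table only through a library where they were high, which favours a lower Hox13-/- value. A peak in a *Hand2os1* intron, 5.2 kb before *Hand2* (chr8:57315705-57315826), read 2.86 and 3.24 in WT and 2.64 and 2.66 in Hox13-/-. The difference of -0.39 (SE 0.11, adjusted p = 0.00351) depended on WT replicate 2, without which it was -0.20 (adjusted p = 0.292). A peak 209.5 kb upstream (chr8:57111365-57111571) read 3.88 and 3.67 in WT and 3.37 and 3.51 in Hox13-/-, with a difference of -0.33 (SE 0.12, adjusted p = 0.0368). That call was lost without WT replicate 1 (-0.23, adjusted p = 0.34) and without Hox13-/- replicate 1 (-0.26, adjusted p = 0.252), and under the GC correction (-0.21).

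The largest difference of both regions was a gain 115.3 kb downstream of *Hand2*, between *Hand2* and *Scrg1* (chr8:57435869-57436645, 777 bp). This peak read 6.13 and 6.19 in WT and 7.09 and 7.17 in Hox13-/-. The replicates of each genotype lay close together and the genotypes were far apart, nearly 2-fold on this scale (1.96). The difference was 0.97 (SE 0.13, limma adjusted p = 3.81e-12), and only 220 peaks of the table, 0.355%, had a larger one. With each library left out it ranged from 0.93 to 1.01 and stayed past the threshold. The sequence shown above has CATCTG at bases 116 to 121.

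Far upstream of *Hand2*, accessibility rose at a strong peak 186.7 kb from its start (chr8:57134053-57134573), which was called in all 4 libraries. It read 6.74 and 6.66 in WT and 7.24 and 7.23 in Hox13-/-. The difference was 0.54 (SE 0.13, adjusted p = 0.000388), and it ranged from 0.49 to 0.58 with each library left out, always past the threshold. Its small neighbour (chr8:57134742-57134931) entered the table only through a peak call in Hox13-/- replicate 1, its highest library, which favours a higher Hox13-/- value. It read 3.51 and 3.64 in WT and 4.00 and 3.90 in Hox13-/-, with a difference of 0.38 (limma adjusted p = 0.0177). That call was lost without WT replicate 1 (0.31, adjusted p = 0.188) and without Hox13-/- replicate 1 (0.33, adjusted p = 0.133), and under the GC correction (0.28). A peak 225.7 kb upstream (chr8:57095015-57095574) read 5.94 and 6.22 in WT and 6.45 and 6.57 in Hox13-/-. It too was higher in both mutant libraries (difference 0.43, SE 0.13, adjusted p = 0.00746), but not past the threshold without WT replicate 1 (0.29, adjusted p = 0.207) or Hox13-/- replicate 2 (0.37, adjusted p = 0.115). The sixth higher peak, 40.2 kb downstream (chr8:57361042-57361384), read 5.05 and 5.07 in WT and 5.34 and 5.45 in Hox13-/- (difference 0.34, adjusted p = 0.0497), just inside the threshold. This call was lost without any 1 of the 4 libraries (0.28 to 0.39, adjusted p from 0.0905 to 0.256), under median centring (0.30), quantile (0.29) and cyclic loess (0.29) normalization, under the GC correction (0.24) and with either filter on weak peaks (adjusted p = 0.0613 and 0.0589).

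**Figure D4:**
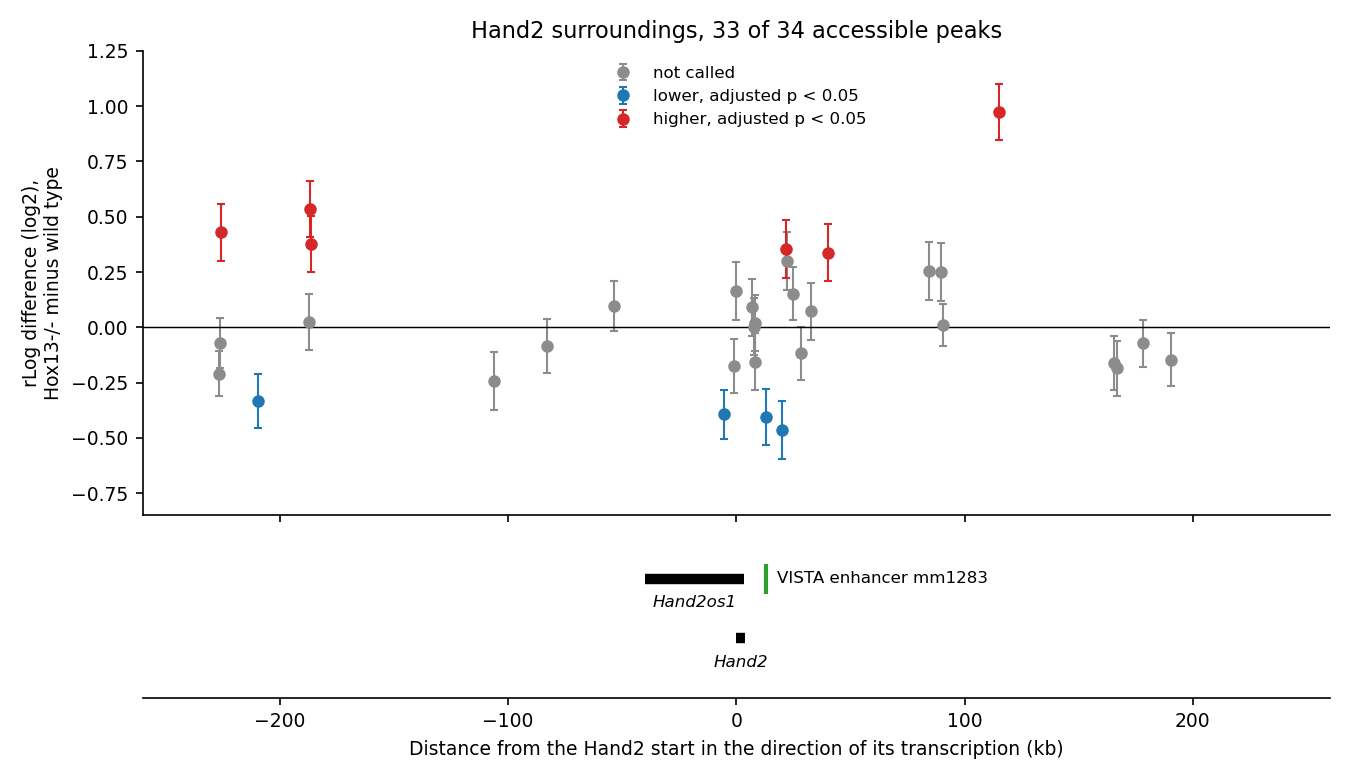
Points give the rLog difference, Hox13-/- minus WT, of the 34 peaks around *Hand2* except 1 lower peak that is not reported here, with the SE as bars, by distance (kb) from the *Hand2* start, above *Hand2*, *Hand2os1* and the VISTA element. Lower and higher calls lie on both sides of *Hand2*, and the peak at 115.3 kb stands above the others at 0.97.

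Lower and higher peaks were mixed along the *Hand2* surroundings. Upstream of the start, 3 of 14 peaks were lower and 3 higher, and downstream 2 of 20 were lower and 3 higher. Within 50 kb of the start, 3 of 15 peaks were lower and 2 higher, and farther out 2 of 19 were lower and 4 higher. Of all peaks, 8.31% were called lower and 11.4% higher, and no difference between the groups was tested. A cluster of 4 peaks between 7.08 and 8.28 kb downstream, 1 of them strong (chr8:57328345-57328843, 6.34 and 6.21 in WT, 6.23 and 6.32 in Hox13-/-), had differences between -0.15 and 0.09, none past the threshold. The highest signals around *Hand2* were at the starts of 2 broadly expressed genes. *Hmgb2*, which encodes a chromatin protein, read 8.50 in both WT libraries and 8.32 and 8.39 in Hox13-/- (difference -0.15, adjusted p = 0.419). *Sap30*, which encodes a subunit of a histone deacetylase complex, read 8.34 and 8.10 in WT and 7.98 and 8.09 in Hox13-/- (difference -0.19, adjusted p = 0.291). The *Sap30* difference was -0.07 without WT replicate 1, -0.31 without WT replicate 2 and -0.06 under cyclic loess normalization. At the *Hmgb2* peak the sign turned under cyclic loess normalization, to a value near 0. Apart from *Shh*, *Lmbr1* and *Hand2*, 4 protein-coding genes had 5 peaks within 1 kb of the first base of the gene in both regions, with differences from -0.35 to -0.14 and 1 call, and *Scrg1* had no start peak. Over all 17693 peaks within 1 kb of a protein-coding start, 8.67% were lower and 0.921% higher, with a median difference of -0.11.

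**Figure D5:**
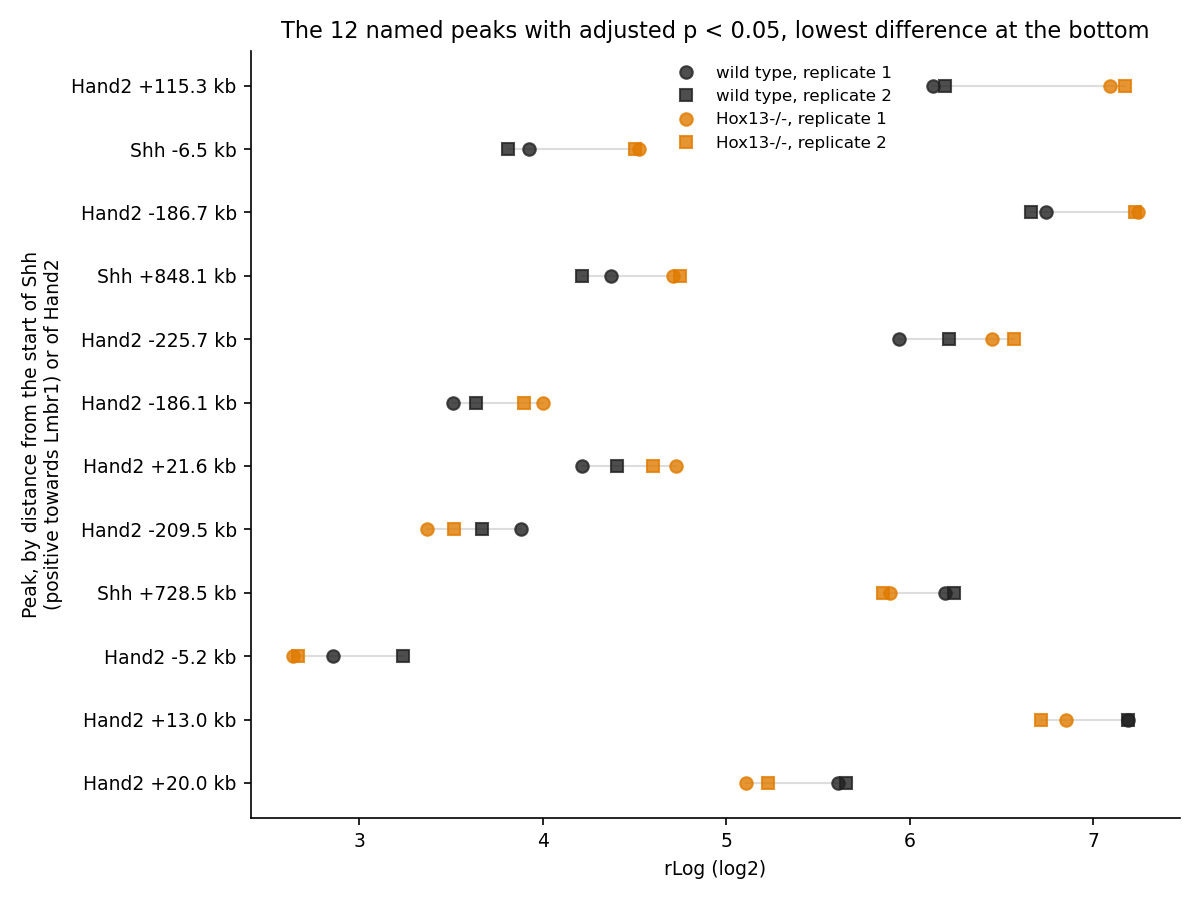
Points give the rLog of each library at 12 of the peaks with an adjusted p under 0.05 described here (all but the *Hand2* 40.2 kb peak), named by distance (kb) from the start of *Shh* or *Hand2* and ordered by their difference. The WT and Hox13-/- points do not overlap in any row, and the gap is widest at the *Hand2* 115.3 kb peak.

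Peak calls per library were compared with the differences. Of the 45 peaks, 10 were called in all 4 libraries, 21 in only 1, and 6 in both Hox13-/- libraries and no WT library. Those 6 include the *Shh* intron peak and the shorter ZRS peak, and 4 of them were higher. Over all peaks, 31.8% were called in all 4 libraries, 34.6% in only 1 and 11.2% in both Hox13-/- libraries and no WT library, and 49.4% of the last were higher. Only 1 peak, upstream of *Hand2* (chr8:57214626-57214867), was called in both WT libraries and no Hox13-/- library, and it read 4.70 and 4.78 in WT and 4.67 and 4.33 in Hox13-/- (difference -0.24, adjusted p = 0.188). Peak calls and rLog values come from the same reads, so these shares are no separate evidence. Entry into the table through libraries of only 1 genotype also favours a higher value in that genotype. Base composition differed between the classes of peaks. Median GC content was 60.5% in the 11 peaks of both regions at a start, 47.8% in the 13 intronic peaks and 43.6% in the 18 intergenic peaks, and the calls were 3 lower and 0 higher, 1 lower and 3 higher, and 2 lower and 5 higher, respectively. Among all intergenic peaks, 8.5% were lower and 16.3% higher, so the direction by class followed that of the whole table. With the GC correction, 0 peaks of the *Shh* to *Lmbr1* domain were lower and 3 around *Hand2* were higher, while over all peaks 5069 were lower and 5407 higher.

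Motif matches in the members were compared with all peaks in windows of 300 bases around the midpoint, on both strands. CNNATAAA, the HOX13 motif, was found in 1 of 11 windows of the *Shh* to *Lmbr1* domain and in 12 of 34 around *Hand2*, beside 15.5% of all windows. The ZRS windows held none, although the shorter one contains the annotated HOX sites. Of the 6 lower peaks 2 held the motif, of the 8 higher peaks 3 did, and of the 31 others 8 did, beside 29.0% of all lower, 17.6% of all higher and 13.9% of all other windows. CATCTG was present in 2 of 11 and 8 of 34 windows (23.0% of all), including that of the shorter ZRS peak, where it overlaps HOX site 3. GGAAGT was present in 4 of 11 and 11 of 34 windows (19.8% of all), and the core of the CTCF motif in none of the 45 (1.84% of all). No motif searched contains another, although single matches can overlap at their ends.

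The most accessible start peaks of Hedgehog pathway genes passed the test about as often as all peaks at protein-coding starts. Of 25 listed genes, 21 had a peak within 1 kb of a start, of which 2 were lower, 0 higher and 19 did not pass, with a median difference of -0.16. Among all peaks within 1 kb of a protein-coding start, 9.59% passed in either direction, 8.67% as lower and 0.921% as higher. The list takes only the most accessible start peak of each gene, while these shares count every such peak, so the comparison is rough. When a call at any start peak counted, 11 genes of this list and the next together passed rather than 6. *Scube3*, which encodes a secreted protein that helps release Hedgehog ligand, read 7.01 and 7.00 in WT and 6.55 and 6.12 in Hox13-/- (difference -0.67, SE 0.13, adjusted p = 4.92e-06). *Hhat*, whose product attaches palmitate to Hedgehog proteins, read 4.45 and 4.19 in WT and 3.86 and 3.93 in Hox13-/- (difference -0.42, SE 0.13, adjusted p = 0.00814). *Ptch1*, the receptor and a target of the signal, read 6.64 and 6.53 in WT and 6.64 and 6.45 in Hox13-/- (adjusted p = 0.854), and *Gli1*, a transcriptional target, read 5.63 and 5.60 in WT and 5.54 and 5.29 in Hox13-/- (adjusted p = 0.284). The ligand genes *Shh*, *Ihh* and *Dhh* had no start peak.

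Of 42 listed genes that act on *Shh* in the limb, 38 had a start peak, of which 4 were lower and 0 higher, with a median difference of -0.08. This too was near the 8.67% lower and 0.921% higher of all peaks at protein-coding starts, with their median of -0.11. Only the most accessible peak stood for each listed gene here, as above. At *Hoxa11*, a 5′ Hox gene, the most accessible of 3 peaks within 1 kb of an annotated start (chr6:52244502-52245040) read 6.85 and 6.81 in WT and 5.25 and 4.93 in Hox13-/- (difference -1.74, SE 0.13, adjusted p = 9.53e-37). This peak lies in *Hoxa11* and also in the antisense gene *Hoxa11os*, and its signal cannot be assigned to either of them. *Twist1*, a mesenchymal factor, read 6.09 and 6.18 in WT and 5.92 and 5.55 in Hox13-/- (difference -0.40, adjusted p = 0.0143). *Ldb1*, a cofactor of LIM-homeodomain proteins, read 7.18 and 7.31 in WT and 6.99 and 6.72 in Hox13-/- (difference -0.39, adjusted p = 0.0156). Without Hox13-/- replicate 2, 3 genes of the Hedgehog and regulator lists together passed, against 6 with all libraries. The remaining lower gene was *Fgf10*, a mesenchymal growth factor of limb outgrowth, with a difference of -0.35 (adjusted p = 0.0395). The start peaks of the ETS genes *Etv4* and *Etv5* differed by 0.00 and -0.07, and neither passed. At the starts of the inactivated genes, *Hoxa13* read 5.72 and 5.95 in WT and 5.66 and 5.84 in Hox13-/-, and *Hoxd13* read 4.35 and 4.34 in WT and 3.99 and 4.17 in Hox13-/- (adjusted p = 0.708 and 0.137). Open chromatin at a start does not show whether a gene product is made, so these values do not check the genotype.

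The labelled tissue was compared with marker genes by their start peaks. Their part in the differences above was not tested. All 12 limb mesenchyme markers had one, with *Lhx2* the most accessible, and 1 of them, *Twist1*, was lower. Of the 7 posterior mesenchyme markers, 6 had a start peak, all but *Shh*, and their mean rLog was 5.67 and 5.55 in WT and 5.57 and 5.51 in Hox13-/-. None of these 6 passed. Ectoderm and ridge markers had 4 of 9 starts open (mean 3.98 and 3.80 in WT, 3.80 and 3.77 in Hox13-/-, most accessible *Dlx5*), without *Krt5*, *Krt14*, *Trp63*, *Fgf8* and *Esrp1*. Muscle precursor markers had 2 of 6 (4.36 and 4.40, then 4.41 and 4.23, most accessible *Met*), without *Pax3*, *Pax7*, *Myf5* and *Lbx1*. Endothelial markers had 3 of 6 (6.01 and 5.97, then 6.12 and 5.89, most accessible *Kdr*), blood markers 1 of 7 (*Klf1*, 3.16 and 3.10, then 3.02 and 2.98) and nerve sheath markers 1 of 4 (*Erbb3*, 3.28 and 3.41, then 3.36 and 3.24). No marker start of these other cell types passed the test in either direction, but only 4, 2, 3, 1 and 1 such starts had a peak, and 9.59% of all peaks at protein-coding starts passed.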

How the data were processed

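Paired-end reads of the 4 distal libraries were aligned by the authors to mm10 with Bowtie2 2.3.1, peaks were called per library with MACS2 2.1.1.20160309, and HOMER 4.9.1 merged them. The authors deposited for each merged peak a log2-scale rLog value per library from DESeq2, scaled by size factors and shrunken, which understates changes of weak peaks. Deposited columns of fold changes and p-values were not used, and 0 columns of other samples were left out. Handling of duplicates and of the Tn5 offset is not given in the sources used here. All 61954 peaks (19 autosomes) were fitted here with limma 3.58.1 in R 4.3.3 (genotype only, variance trend, two-sided), with Benjamini-Hochberg adjusted p-values over all of them. The procedure was tested on simulated data. With 2 libraries per genotype the smallest permutation p is 0.333. In the gene lists, the peak with the highest mean rLog within 1 kb of a start stood for the gene.

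Sequences and sites came from GRCm38 (mm10) and RefSeq, genes from GENCODE M21, read with pysam 0.24.0 and pandas 2.3.3 in Python 3.11.15, and figures were drawn with matplotlib 3.10.9. Coordinates count from 1. Named peaks were those at the ZRS and at starts or bodies of *Shh*, *Lmbr1* and *Hand2*. Added to them were up to 5 called peaks with the smallest p per region and direction, and the 3 peaks with the highest signal per region. A lower peak around *Hand2* that meets this rule is counted but not reported here, so the decreases given singly do not cover the full range. The peak 40.2 kb downstream of *Hand2* and those described as uncalled neighbours were named after their values were seen. Members, lists and tests were chosen with earlier results of these data known. Alternatives were other scalings, filters on weak peaks, thresholds, a GC correction, the replicate block, other extents and leaving out each library.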

Additional observations from a re-analysis of the deposited data

How the results depend on the processing

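Most calls in both regions were lost with at least 1 library left out, and depth per peak is unknown. Of the 12 named peaks with an adjusted p under 0.05, 8 kept their call under all 9 alternatives of scaling, variance model, filter, block and GC correction that apply to them, and 3 kept it with each library left out: the *Shh* intron peak and the *Hand2* peaks at -186.7 and 115.3 kb. A genotype left with 1 library was assumed to vary like the other.

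In the *Shh* to *Lmbr1* domain, the lower count of 1 became 2 under median centring and at an adjusted p under 0.10, and 0 under the GC correction, at an adjusted p under 0.01, without start peaks and without each library (0 to 0). Over all peaks, 5146 lower and 7040 higher became 6811 and 6017 under median centring, 5069 and 5407 under the GC correction, and 3268 and 5000 of the 30977 peaks in the upper 50% by mean rLog. Its higher count of 2 became 0 among the upper 50%, and ran from 1 to 3 with a library left out. Around *Hand2*, the lower count of 5 became 3 and 2 among the upper 75% and 50% of peaks and 3 at an adjusted p under 0.01, and ran from 3 to 4 with a library left out. Under the GC correction the lower count was 4. The higher count of 6 became 4 under median centring and under quantile and cyclic loess normalization. It became 3 among the upper 50%, under the GC correction and at an adjusted p under 0.01, and 2 within 100 kb of the start. The count of 0 beyond 2-fold became 1 under cyclic loess normalization and 2 above 1.5-fold, where the *Shh* to *Lmbr1* domain had 1. Leaving out a library also moved these counts, as given above. The 6 changed genes of both lists became 3 at an adjusted p under 0.01. They became 11 genes when a call at any peak within 1 kb of a start counted for the gene.

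Among the named peaks, signs turned at 3, none with a call with all libraries: the longer ZRS peak without Hox13-/- replicate 2 (-0.0422, with 0.540 as the highest value when a library was left out), the *Lmbr1* start under median centring (-0.00252) and without Hox13-/- replicate 2 (-0.00351, with 0.0673 as the highest), and the *Hmgb2* start under cyclic loess (0.000312). The causes were not tested. At an adjusted p under 0.05, the *Nom1* start passed only under median centring (-0.33).

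The replicate block changed no call: 1 and 2 peaks of the *Shh* to *Lmbr1* domain and 5 and 6 around *Hand2* were lower and higher with it, and the shorter ZRS peak kept a difference of 0.43 (adjusted p = 0.0069). Replicate 1 minus replicate 2 was nearly uncorrelated between the genotypes (r = -0.0106 across 61954 peaks). No effect shared by replicate number was thus seen, but this cannot tell how embryos or libraries were handled. With the block and the GC correction together, the *Shh* to *Lmbr1* domain had 0 lower peaks and *Hand2* 3 higher peaks.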
